A study of Mus musculus with 3 samples.

Results

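The genes of the IL-12 family and Il6 encode cytokines through which stimulated macrophages instruct T cells, NK cells, and the acute phase response. They were taken as 6 genes, Il12b, Il12a, Il23a, Ebi3, Il27, and Il6, from the 34821 gene names of a mouse expression array, by every probe that carried one of these names and was not a control. Each gene had 1 probe. Il12b had 10 spots, Il6 had 2, and the other genes had 1 each, 16 spots in all. BMDMs are macrophages differentiated from bone marrow, here from C57BL/6J mice and cultured for 4 to 6 days with M-CSF at 10 units/ml. The cells were stimulated for 20 h with CpG, a DNA ligand of TLR9, with IFN-γ + αIL-10R, an antibody against the IL-10 receptor that keeps IL-10 from signaling, or with all of these agents together (Triple). Each of the 3 conditions had 1 array, so no difference below has a replicate check and no p-value is given. Unstimulated BMDMs were not analysed here. IFN-γ was always given with αIL-10R, so the effects of these agents cannot be told apart, and fewer cells of a type cannot be told apart from less RNA per cell in a culture measured as a whole.

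The IL-12 family is built by pairing subunits. Il12b encodes the p40 chain, which joins p35, encoded by Il12a, to form IL-12 and joins p19, encoded by Il23a, to form IL-23. Ebi3 encodes a chain that is related to a soluble receptor and joins p28, encoded by Il27, to form IL-27, and an Ebi3 partnership with p35 is known as IL-35. IL-6 acts as a single chain and shares the signaling receptor gp130 with IL-27. In macrophages, NF-κB, C/EBP, AP-1, and interferon regulatory factors act on the promoters of these genes, and IL-10 is a known inhibitor of Il12b and Il6.

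The proximal promoters are shown because the 4 detected genes differed between the arrays in different ways. RefSeq (GRCm38.p6) promoter entries matched 4 of the 6 genes, and Il27 and Il23a had none. The 250 bases before the transcription start of Il12b, Il6, and Ebi3 are given 5′ to 3′ with every match of the searched motifs in capitals.
Il12b (GRCm38.p6 chr11:44399813-44400062, + strand): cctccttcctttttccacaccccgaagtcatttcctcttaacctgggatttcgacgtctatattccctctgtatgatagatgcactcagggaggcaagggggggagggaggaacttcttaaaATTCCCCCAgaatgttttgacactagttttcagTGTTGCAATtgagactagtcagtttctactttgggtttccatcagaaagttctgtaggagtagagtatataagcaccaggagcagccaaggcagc
Il6 (GRCm38.p6 chr5:30012864-30013113, + strand): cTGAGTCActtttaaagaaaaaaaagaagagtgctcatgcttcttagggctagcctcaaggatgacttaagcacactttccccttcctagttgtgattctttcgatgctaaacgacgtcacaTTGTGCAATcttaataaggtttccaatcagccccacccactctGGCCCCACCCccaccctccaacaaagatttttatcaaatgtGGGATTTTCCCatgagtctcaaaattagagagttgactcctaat
Ebi3 (GRCm38.p6 chr17:55952373-55952622, + strand): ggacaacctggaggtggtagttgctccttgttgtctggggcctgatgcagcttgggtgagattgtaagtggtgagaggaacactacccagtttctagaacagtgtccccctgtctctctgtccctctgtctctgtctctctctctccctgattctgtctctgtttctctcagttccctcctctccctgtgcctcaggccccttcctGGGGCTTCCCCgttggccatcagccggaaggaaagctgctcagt

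The motifs were an NF-κB motif (GGG and CC with 5 unspecified bases between them), a C/EBP motif (TTNNGNAAT or TGNNGNAAT), an AP-1 motif (TGANTCA), and an interferon response motif named ISRE (GAAA, 2 unspecified bases, and GAAA again), each read on both strands. In the Il6 window, capitals marked AP-1 at 249 to 243 bases before the start, C/EBP at 128 to 120, and NF-κB at 85 to 76 and at 44 to 34, where 2 NF-κB matches overlapped. The Il12b window held 2 matches of the C/EBP letters, at 128 to 120 on the minus strand and at 95 to 87 on the plus strand. It held no match of the NF-κB letters searched. Sites with other letters were not sought, so the lack of a match does not show that a site is absent. The Ebi3 window held 4 NF-κB matches that all overlapped at 44 to 34 bases before the start. For Il12a, which had 2 start sites, only the window of the second site held a match, 2 overlapping NF-κB matches at 113 to 103. ISRE matched none of these windows. Among 32851 mouse promoters of the same length, 45.8% held the NF-κB motif, 18.6% the C/EBP motif, 6.75% the AP-1 motif, and 2.98% ISRE. A match describes letters only, and the arrays did not measure binding.

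Signals are the intensities that the scanner software gave after subtraction of background, and the software also marked whether a spot was well above background. The arrays shared 1 slide and 1 scan time. Between 43.5% and 45.1% of the 52752 probes measured on every array were well above background, and the lowest signal so marked was 23.8 in CpG, 26.7 in IFN-γ + αIL-10R, and 26.3 in Triple. A fold is the difference of log2 signals after the 75th percentile of its array was taken from each, and folds beyond 2-fold were counted. A dimmer signal without that mark was set to the lowest marked signal of its array, and such a fold is a lower bound. The SD between spots of 1 probe on the same array was 0.0926 in CpG, 0.0804 in IFN-γ + αIL-10R, and 0.0961 in Triple (log2), which gave 0.13 for a log2 fold between 2 single spots. This noise leaves out differences between cultures.

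Il12b and Il6 were not detected without CpG, dim with CpG, and bright in Triple. Il27 and Ebi3 were detected on every array. Il12a and Il23a were detected on none. The plot of every spot shows these patterns on a shared axis.

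**Figure D1:**
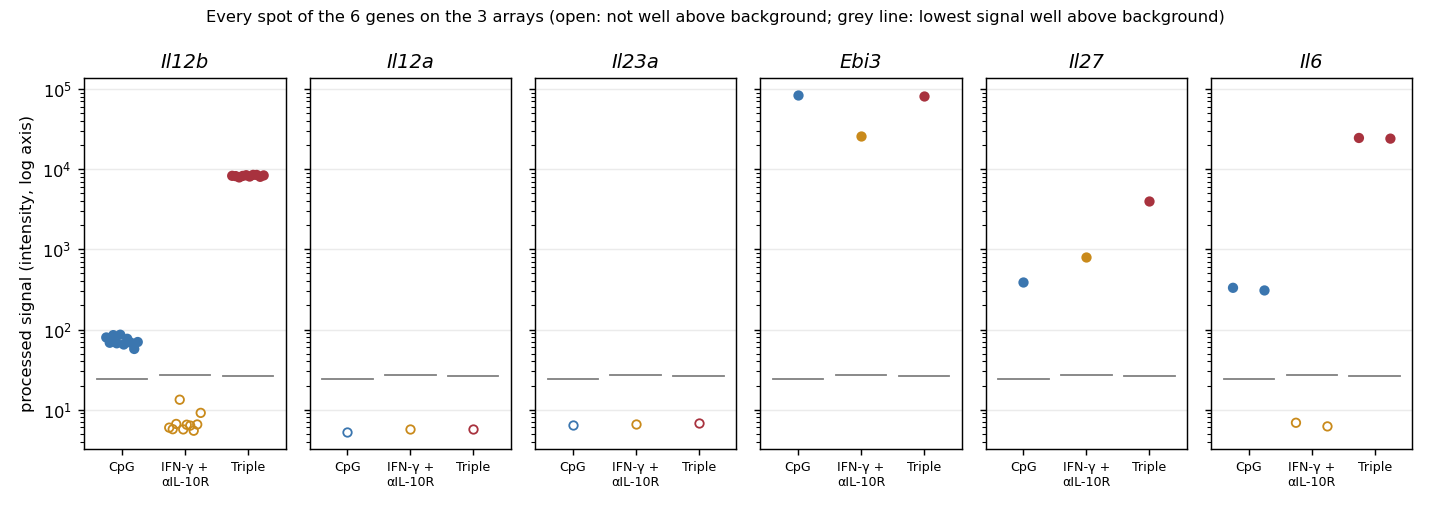
Processed signal (log axis) of all 16 spots of the 6 genes on the CpG, IFN-γ + αIL-10R, and Triple arrays, 1 array each. Filled points were well above background, open points were not, and grey lines mark the lowest signal well above background on each array; the 10 Il12b spots and both Il6 spots of Triple lie above all of their CpG spots, and Il12a and Il23a have open points only.

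The probe of Il12b (NM_008352) lay on mm9 at chr11:44227121-44227180 on the plus strand. Its 10 spots, at rows 13 to 345 of the 384 rows of the array, gave signals in CpG of 57.2 at the lowest, 69.2 at the median, and 86.2 at the highest. In IFN-γ + αIL-10R the same spots gave 5.47, 6.41, and 13.3, and 0 of the 10 were well above background. In Triple they gave 7891, 8251, and 8489. The spots of the 3 arrays did not overlap, and the SD between spots was 0.18 (log2) in CpG and 0.035 in Triple. Averaged over spots, the signal was 71.8 in CpG, 6.85 in IFN-γ + αIL-10R, and 8242 in Triple. The log2 fold of Triple over CpG was 6.90, or 119-fold (SE between spots 0.06, or 0.074 by the scanner software's own spot errors). It ranked 10 from the highest among 16276 genes detected on both arrays. With normexp background correction, a model-based alternative to the software's subtraction, it was 5.93. Over IFN-γ + αIL-10R, p40 mRNA in Triple was at least 316-fold higher (log2 fold at least 8.30, or at least 6.49 with normexp). CpG was at least 2.65-fold higher than IFN-γ + αIL-10R (log2 fold at least 1.40), but this bound fell to 0.56 with normexp background correction, which is inside 2-fold.

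Il6 (NM_031168), whose product drives the acute phase response, was read by a probe at mm9 chr5:30346367-30346426 on the plus strand. Its 2 spots gave 307 and 331 in CpG, 6.19 and 6.87 in IFN-γ + αIL-10R, and 24045 and 24515 in Triple. Neither spot of IFN-γ + αIL-10R was well above background, and the spots of the other arrays lay far apart. Mean signals were 319, 6.52, and 24279 in the same order. Triple was 79.1-fold higher than CpG, a log2 fold of 6.31 (SE between spots 0.056, or 0.15 by the scanner software's own spot errors). This fold ranked 17 from the highest of the 16276 genes. Against IFN-γ + αIL-10R, Il6 was at least 930-fold higher in Triple (log2 fold at least 9.86) and at least 11.8-fold higher in CpG (log2 fold at least 3.56). With normexp background correction these bounds were smaller, at least 7.98 and at least 1.96. Il6 was therefore detected with CpG alone and was brightest with the cotreatment.

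The probe of Il27 (NM_145636), the p28 subunit, lay at mm9 chr7:133736137-133736196 on the minus strand. With the error that the scanner software assigns to a single spot, its signal was 387 ± 39.0 in CpG, 806 ± 80.7 in IFN-γ + αIL-10R, and 4030 ± 403 in Triple. Triple was the highest and CpG the lowest, and no pair of arrays overlapped within these errors. The log2 fold of Triple was 3.44 over CpG (10.8-fold, software error 0.20), which ranked 73 from the highest of 16276 genes, and 2.35 over IFN-γ + αIL-10R (5.11-fold, software error 0.20). Unlike the signals of Il12b and Il6, that of Il27 was lower in CpG than in IFN-γ + αIL-10R, 2.12-fold lower with a log2 fold of -1.08 (software error 0.21). This difference was just past 2-fold, and with normexp background correction it was -0.95.

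Ebi3 (NM_015766; probe at mm9 chr17:56096309-56096368, plus strand), which pairs with p28, was bright on every array. Its signal was 83567 ± 8357 in CpG, 25835 ± 2583 in IFN-γ + αIL-10R, and 82552 ± 8255 in Triple (software error). Both arrays with CpG were high, and the array without it was low. Relative to IFN-γ + αIL-10R, the log2 fold was 1.67 in CpG (3.18-fold) and 1.71 in Triple (3.27-fold), each with a software error of 0.20. Triple differed from CpG by 0.04 (software error 0.20), which is less than the noise of 0.13 between 2 single spots. The only spot of Ebi3 was at row 41, and among 172 replicated probes with spots both in the first 48 rows and elsewhere, the log2 fold of Triple over IFN-γ + αIL-10R differed between these zones by a median of -0.01 (5th to 95th percentile -0.22 to 0.14).

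Il12a (NM_001159424; probe at mm9 chr3:68502346-68502405, plus strand), the p35 partner that IL-12 needs, gave 5.28 in CpG, 5.78 in IFN-γ + αIL-10R, and 5.75 in Triple. Il23a (NM_031252; probe at mm9 chr10:127733766-127733825, minus strand), the p19 partner that IL-23 needs, gave 6.45, 6.71, and 6.77. None of these spots was well above background, so no fold is given for either gene. Before background subtraction, the Il12a spot had mean pixel signals of 63.0, 75.1, and 71.2 in the same order of arrays. Each lay between the 5th and 95th percentiles of the negative control spots, which were 56.3 to 71.4 in CpG, 63.4 to 85.7 in IFN-γ + αIL-10R, and 64.8 to 83.5 in Triple. The Il23a spot had 75.5, 90.0, and 84.5, slightly above the 95th percentile of the negative controls on each array.

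The Il12a probe had a GC content of 16.7%, against 35.0% to 55.0% for the other 5 probes. Only 45 of the 52752 probes (0.0853%) had a GC content this low or lower. Of these, 6.67% were well above background in CpG, 4.44% in IFN-γ + αIL-10R, and 6.67% in Triple, whereas the shares over all probes were 45.1%, 44.0%, and 43.5%. The part of base composition in the Il12a signal was not tested. The Il23a probe, with a GC content of 38.3%, was in the common range, as the plot of detection by GC content shows.

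**Figure D2:**
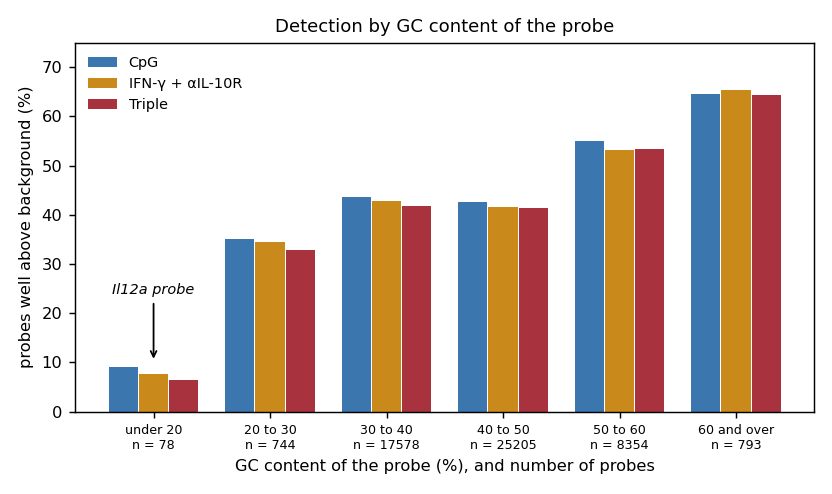
Share of probes well above background (y axis, %) by GC content of the probe (x axis, %, with the number of probes in each class) on the 3 arrays. In the class under 20%, which holds the Il12a probe, 6.41% to 8.97% of 78 probes were detected, the lowest bars of the plot.

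Read by heterodimer, transcripts of both subunits were detected only for IL-27, and they were detected on all 3 arrays. For IL-12 and IL-23, the shared p40 subunit was detected in CpG and Triple, and the partners p35 and p19 were not detected on any array. For IL-35, Ebi3 was detected and p35 was not. Few probes with a GC content as low as that of the Il12a probe were detected, so p35 mRNA cannot be called absent. The arrays measured mRNA at 20 h only, and neither cytokine protein nor earlier times were analysed here.

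Of the 6 genes, 4 exceeded 2-fold upward in Triple against IFN-γ + αIL-10R and none did so downward, whereas 3.53% of all genes measured were higher and 5.00% lower. Among genes detected on at least 1 of those arrays, the shares were 6.57% and 9.31%. The median log2 fold of the 4 detected genes was 5.33, with lower bounds at their bound. Over the genes detected on both arrays the median was -0.04. That set leaves out Il12b and Il6 and holds Ebi3 (1.71) and Il27 (2.35), so the medians are of unlike sets. In Triple over CpG, 3 genes were past 2-fold higher (4.08% of all genes, 7.47% of detected genes) and none was lower (4.55% and 8.34%). The exception among the detected genes was Ebi3, and their median was 4.87 against -0.05 over the genes detected on both arrays. In CpG over IFN-γ + αIL-10R, 3 genes were higher (2.75% of all genes, 5.06% of detected genes) and 1, Il27, was lower (3.18% and 5.84%). The median of the 4 detected genes here was 1.54, with lower bounds at their bound. Over the genes detected on both arrays the median was 0.0. That set again leaves out Il12b and Il6 and holds Ebi3 (1.67) and Il27 (-1.08). The comparisons share arrays pairwise, so an error in 1 array enters 2 of them.

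Triple was also set against the sum of the scaled signals of the other arrays. Il12b in Triple was at least 86.6 times this sum and Il6 at least 72.9 times. Il27 was 3.47 times the sum, and Ebi3 was 0.781 times the sum. Of 17050 genes well above background in Triple, 1.66% were more than 2-fold above the sum, as were Il12b, Il6, and Il27. No unstimulated level was subtracted from these sums.

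**Figure D3:**
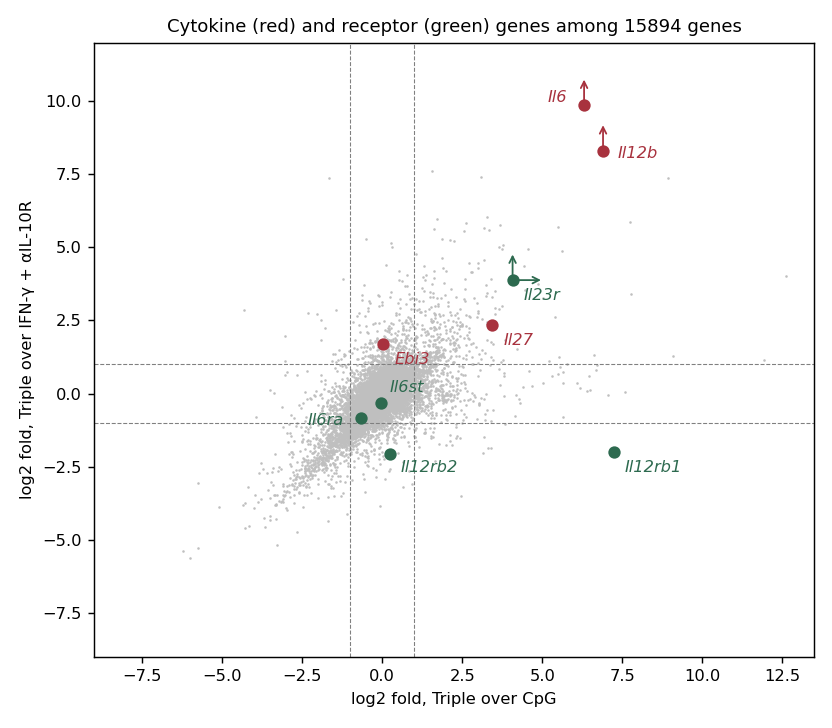
Log2 fold of Triple over CpG (x axis) against that over IFN-γ + αIL-10R (y axis). Grey points are the 15894 genes detected on every array, red points the detected cytokine genes, green points their receptor chains, arrows lower bounds, and dashed lines 2-fold; Il6 (6.31, at least 9.86) and Il12b (6.90, at least 8.30) lie at the upper right, and Ebi3 (0.04, 1.71) lies above the upper dashed line and between the vertical ones.

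For each detected gene, the 3 genes with the most similar pattern were sought by the Euclidean distance of log2 signals, centred over the 3 arrays, among genes detected on the same arrays, leaving out names that are accessions, clones, predicted genes, or coordinates. With 3 arrays this is a description only. Among the 185 named genes detected in CpG and Triple alone, the gene nearest to Il12b was Il6 (distance 1.6), followed by Lad1 (2.4) and Tarm1 (3.0). For Il6, the nearest were Il12b (1.6), Il1b (1.7), and Lad1 (2.9). Il1b, an inflammasome-processed cytokine of macrophages, gave 1445 in CpG, 25.5 in IFN-γ + αIL-10R, where it was not well above background, and 30090 in Triple. Among the 10546 named genes detected on all arrays, Ebi3 was closest to Hmox1 (0.081), which encodes heme oxygenase, Ptgir (0.097), a prostacyclin receptor, and Eml2 (0.1). Il27 was closest to Smpdl3b (0.14), Acsl1 (0.19), and Niacr1 (0.27), the array's name for Hcar2. The distance between the partners Ebi3 and Il27 was 2.55, and that between Il12b and Il27 was 4.23.

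Receptor chains of these cytokines were also measured, and 5 of 6 were detected. Il12rb1, the chain that binds p40 in both the IL-12 and the IL-23 receptor, gave 30.7 in CpG, 18294 in IFN-γ + αIL-10R, and 4446 in Triple. It was thus bright on both arrays with IFN-γ + αIL-10R and only just above background with CpG alone. Its log2 fold in Triple was 7.23 against CpG and -2.01 against IFN-γ + αIL-10R, and CpG alone stood at -9.24 against IFN-γ + αIL-10R. A second, dimmer probe had the same directions with log2 folds of 3.04, -1.79, and -4.83, so the sizes of these changes depended on the probe.

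Il12rb2, the signaling chain of the IL-12 receptor, was brightest in IFN-γ + αIL-10R, with 75.7, 362, and 85.6 in the order CpG, IFN-γ + αIL-10R, Triple. It fell by 2.05 on the log2 scale in Triple against IFN-γ + αIL-10R, and its second probe fell by 2.49. Il23r, the chain specific to IL-23, was detected in Triple alone, with 385 against 10.4 in CpG and 8.30 in IFN-γ + αIL-10R. This was a log2 fold of at least 4.07 over CpG and at least 3.88 over IFN-γ + αIL-10R. Il27ra, the specific chain of the IL-27 receptor, was not well above background on any array, with 17.0, 8.41, and 6.78.

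The IL-6 receptor genes moved less than 2-fold in every comparison. Il6ra, which binds IL-6, gave 13340 in CpG, 14879 in IFN-γ + αIL-10R, and 8184 in Triple, a log2 fold in Triple of -0.65 against CpG and -0.83 against IFN-γ + αIL-10R. Il6st, which encodes gp130, gave 889, 1047, and 827, with log2 folds in Triple of -0.05 and -0.31. In the list of 6 receptor chains, 1 was higher and 2 were lower in Triple than in IFN-γ + αIL-10R, 2 were higher and none lower in Triple than in CpG, and none was higher and 2 were lower in CpG than in IFN-γ + αIL-10R. The median log2 fold of the detected chains was -0.83, 0.23, and -1.27 in these comparisons.

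**Figure D4:**
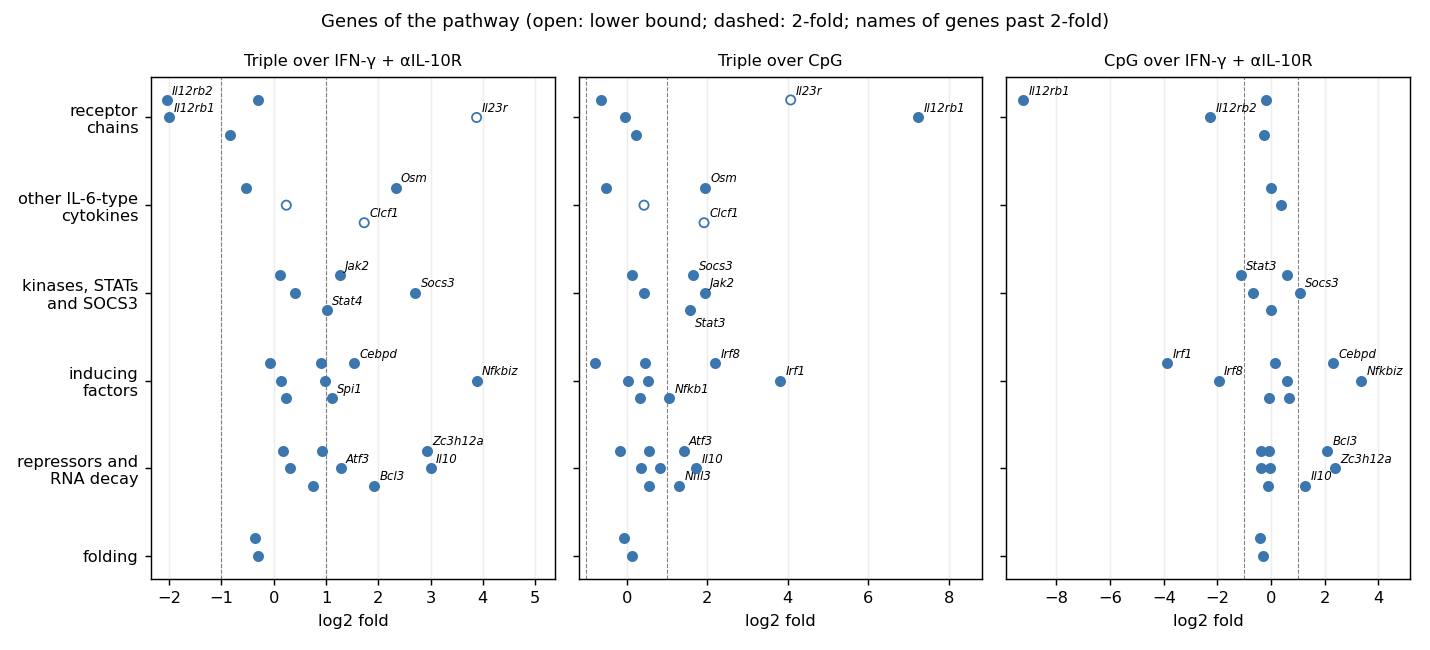
Log2 fold (x axis) of the measured genes of 6 lists around the cytokines (rows) in the 3 comparisons (panels). Points are genes, open points lower bounds, and dashed lines 2-fold; Il12rb1 (7.23) is farthest right in Triple over CpG and farthest left in CpG over IFN-γ + αIL-10R (-9.24).

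Of 8 other cytokine genes of the IL-6 type, 4 were detected on at least 1 array, and Lif, Il11, Ctf1, and Il31 were not. Osm, which encodes oncostatin M and also signals through gp130, gave 76.3 in CpG, 57.8 in IFN-γ + αIL-10R, and 284 in Triple. Triple was highest, with log2 folds of 1.95 against CpG and 2.33 against IFN-γ + αIL-10R. Clcf1, a cardiotrophin-like cytokine, was detected in Triple alone at 86.5, at least 1.92 over CpG and at least 1.73 over IFN-γ + αIL-10R (log2). These were the 2 genes of the list past 2-fold in either comparison with Triple, and none was past 2-fold in CpG over IFN-γ + αIL-10R. Of detected genes, 7.47% were higher in Triple over CpG and 6.57% in Triple over IFN-γ + αIL-10R. In CpG over IFN-γ + αIL-10R, 5.06% were higher and 5.84% lower, so none in a list this short is near these shares. With bounds at their value, the list's median was 1.17 in Triple over CpG and 0.98 against IFN-γ + αIL-10R.

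Among kinases, STATs, and Socs3 downstream of the receptors, 5 of 6 genes were measured without outlier marks. Stat3, a mediator of IL-6 signals, gave 11112 in CpG, 24101 in IFN-γ + αIL-10R, and 31432 in Triple. It was lowest in CpG, with a log2 fold of 1.56 in Triple over CpG. Jak2, a kinase of the IL-12 and gp130 receptors, was highest in Triple at 11633 against 3150 in CpG and 4952 in IFN-γ + αIL-10R. Socs3, the inhibitor of gp130 signaling, gave 17358, 8207, and 52485, a log2 fold in Triple of 1.65 against CpG and 2.71 against IFN-γ + αIL-10R. Stat4, which IL-12 activates, was at 1.01 in Triple over IFN-γ + αIL-10R, just past 2-fold. In all, 3 genes were higher in Triple than in CpG, 3 were higher in Triple than in IFN-γ + αIL-10R, and none was lower. CpG over IFN-γ + αIL-10R had 1 higher, Socs3 (1.06), and 1 lower, Stat3 (-1.14). Of detected genes, 7.47% were higher and 8.34% lower in Triple over CpG, and 6.57% and 9.31% in Triple over IFN-γ + αIL-10R. In CpG over IFN-γ + αIL-10R these shares were 5.06% and 5.84%. None lower in a list this short is near such shares. The list's median was 1.56 in Triple over CpG, 1.01 in Triple against IFN-γ + αIL-10R, and -0.01 in CpG against IFN-γ + αIL-10R.

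Of 13 transcription factors known to induce these cytokines, 10 were measured and 8 were detected, and Rel and Fosl1 were not well above background. Irf1 and Irf8, which act on the Il12b and Il27 promoters, were bright on both arrays with IFN-γ + αIL-10R. Irf1 gave 9196 in CpG, 132675 in IFN-γ + αIL-10R, and 123964 in Triple (log2 fold of Triple 3.81 against CpG and -0.07 against IFN-γ + αIL-10R), and Irf8 gave 20183, 77123, and 89361 (2.20 and 0.24). Nfkbiz, which encodes the IκBζ cofactor needed for Il6 and Il12b, and Cebpd, a C/EBP factor, were instead bright on both arrays with CpG. Nfkbiz gave 2603, 252, and 3631, a log2 fold of 3.35 in CpG and 3.88 in Triple over IFN-γ + αIL-10R. Cebpd gave 49209, 9731, and 27426, a log2 fold of 2.31 in CpG and 1.53 in Triple over IFN-γ + αIL-10R. Nfkb1 was at 1.05 in Triple over CpG, where its second probe was at 0.78, and Spi1, the PU.1 gene named Sfpi1 on the array, was at 1.11 in Triple over IFN-γ + αIL-10R. Each comparison with Triple had 3 factors higher and none lower, and CpG over IFN-γ + αIL-10R had 2 higher and 2 lower. Among these, Nfkb1 (1.05) and Spi1 (1.11) were counted just past 2-fold. Of detected genes, 7.47% were higher and 8.34% lower in Triple over CpG, and 6.57% and 9.31% in Triple over IFN-γ + αIL-10R. In CpG over IFN-γ + αIL-10R these shares were 5.06% and 5.84%. None lower in a list this short is near such shares. The median of the detected factors was 0.49 in Triple over CpG, and against IFN-γ + αIL-10R it was 0.94 in Triple and 0.36 in CpG.

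Repressors of these cytokines and factors that destabilise their mRNA made up a list of 8 genes, and none was past 2-fold lower in Triple. Of detected genes, 8.34% were lower in Triple over CpG and 9.31% in Triple over IFN-γ + αIL-10R, so none in a list this short is near these shares. The part of these genes in the cytokine signals was not tested. Il10 itself, the cytokine whose receptor was blocked, gave 3117 in CpG, 1271 in IFN-γ + αIL-10R, and 9957 in Triple, a log2 fold of Triple of 1.73 against CpG and 3.0 against IFN-γ + αIL-10R. Zc3h12a, which encodes the RNase Regnase that degrades Il6 mRNA, gave 1143, 216, and 1612 (log2 fold of Triple 0.55 and 2.93). Bcl3, an atypical IκB protein, gave 33392, 7776, and 28701 (-0.16 and 1.92), and Atf3, a TLR-induced repressor of Il6 and Il12b, gave 22726, 24487, and 58207 (1.41 and 1.28). Nfil3, a repressor of Il12b, was at 1.31 in Triple against CpG and 0.93 against IFN-γ + αIL-10R. Of 8 genes, all detected, 4 were higher in Triple than in IFN-γ + αIL-10R, 3 were higher in Triple than in CpG, 3 were higher in CpG than in IFN-γ + αIL-10R, and none was lower in any comparison. Their medians were 1.1, 0.69, and -0.06 in the same order. No gene of the 4 listed for folding and assembly of the heterodimers was past 2-fold in any comparison, with 3 of them measured. In a list this short, none is near the shares over detected genes.

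Markers of macrophages were well above background in 7 of 7 cases on all arrays, with summed signals of 134 in CpG, 128 in IFN-γ + αIL-10R, and 119 in Triple in units of each array's 75th percentile. Some single markers differed more than these sums. Cd14 was highest in Triple, with 55389, 5534, and 90961 in the same order, and Cd68 was lowest in Triple, with 153505, 190933, and 83203. Dendritic cells can also make these cytokines. Of 7 dendritic cell markers, 2 were detected in CpG, 4 in IFN-γ + αIL-10R, and 5 in Triple, with summed signals of 8.02, 8.56, and 7.54. Ccr7, a chemokine receptor of mature dendritic cells, was highest in Triple, like Il12b and Il6, with 2892 against 319 in CpG and 225 in IFN-γ + αIL-10R, and Zbtb46 was at 25.1, 36.3, and 133. Clec9a was instead highest in IFN-γ + αIL-10R, where Il12b and Il6 were not detected, with 5.35 in CpG, 1963 in IFN-γ + αIL-10R, and 152 in Triple. Siglech, which made up most of each summed signal, was lowest in Triple, with 36076, 35974, and 29736. Xcr1 was detected in Triple alone at 60.7, and Flt3 and Cd209a were not well above background on any array. Markers of NK cells were detected for 0 of 4 genes on every array. Markers of T cells were detected for 3 of 6 genes on each array, with Cd3d, Cd3g, and Cd8a not detected, markers of B cells for 2 of 4, with Ms4a1 and Pax5 not detected, and markers of neutrophils for 2 of 5, with Cxcr2, Ltf, and Mpo not detected. Their summed signals were 0.587 to 0.684 for T cells, 0.0466 to 0.201 for B cells, and 0.761 to 2.10 for neutrophils. Markers of fibroblasts, another source of Il6, were detected for 3 of 4 genes in CpG and Triple and 2 of 4 in IFN-γ + αIL-10R, with summed signals of 0.122, 0.115, and 0.0812 in that order. The part of these cells in the cytokine signals was not tested.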

How the data were processed

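Gene expression was measured in BMDMs on 3 Agilent 1-colour arrays, 1 per condition. For each array the authors deposited the spot file of Agilent Feature Extraction 10.10.1.1, in which the processed signal is a background-subtracted and detrended intensity on a linear scale, with a surrogate value for dim spots. A second table that the authors deposited holds log2 values, which equalled the log2 of the processed signals less an array constant (within 0.05 for 100.0% of probes). Control spots and outlier spots (3.04% to 3.78%) were left out, no spot was saturated, and the log2 signals of replicate spots were averaged. Because 44.2% of probes, under the limit of 50%, were well above background, the 75th percentile was taken over the 21233 probes detected on all arrays. The brightest probe by mean stood for its gene, and 33597 genes were measured. Raising a dim signal to the lowest detected signal understates a fold. Of the 6 probe accessions, 5 were found in the RefSeq table of GRCm38.p6, and gene models on mm9, the build of the probe positions, were not used here. The members and the gene lists were chosen with earlier results of these data known. All members and receptor chains are given, and in the other lists the genes past 2-fold in any comparison and those not detected. Of the listed genes other than the members, 5 of 45 (Tyk2, Rela, Irf5, Junb, and Hsp90b1) had outlier spots and no value. Some listed genes are not reported here. Alternatives were other background corrections, scalings, filters, probe choices, and thresholds. The code was tested on simulated arrays. Python 3.11.15, numpy 2.4.6, pandas 2.3.3, matplotlib 3.10.9, R 4.3.3, and limma 3.58.1 were used.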

Additional observations from a re-analysis of the deposited data

How the results depend on the processing

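No fold changed direction among 152 fold values of the 4 detected genes under 13 alternatives, apart from Ebi3 in Triple over CpG, which was not called and ranged from -0.06 to 0.11. Of 11 folds past 2-fold, 9 stayed past it in every alternative, and the exceptions were CpG over IFN-γ + αIL-10R for Il12b (0.56 to 3.36) and Il27 (-1.12 to -0.95), which both fell inside 2-fold with normexp background correction. Some of these alternatives could not move a value. Each gene had 1 probe, so the choice of probe could change no fold or count. The choice of filter could not change a fold of a gene detected on both arrays. Of 84 counts, 4 moved by more than 1.5 times. Requiring detection on both arrays left 2 genes higher in Triple and 1 higher in CpG than in IFN-γ + αIL-10R, since Il12b and Il6 were then not counted, and 0 genes were lower in CpG than in IFN-γ + αIL-10R with normexp background correction or a 3-fold threshold, each of which also left 2 of the 3 genes higher. The treatment of dim signals or background moved the fold of Il12b in Triple over CpG (5.93 to 6.97) and the folds over IFN-γ + αIL-10R of Il12b in Triple (6.49 to 10.26) and of Il6 in Triple (7.98 to 11.89) and CpG (1.96 to 5.59). No paired analysis was possible because there was 1 array of each condition. The precision is limited by the number of arrays and, for Il12b in CpG and all genes not detected, by signal close to background.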
